A study of Mus musculus with 4 samples.

Results

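Heat shock proteins of the HSP70 and HSP90 families, their J-domain and nucleotide exchange partners and the ER and mitochondrial chaperones were examined in neonatal PMN-MDSCs, the neutrophil-like suppressor cells that appear transiently after birth. The 10 genes were listed by name. They are Hspa1a, Hspa1b, Hsp90aa1, Dnajb1 and Hsph1, which heat and other proteotoxic stress induce, Hspa8 and Hsp90ab1, the constitutive cytosolic forms, Hspa5 of the ER, and Hspa9 and Hspd1 of the mitochondria. All 10 were listed among the 28585 genes of the deposited values, none was at 0 in any library, and all 10 passed the minimum mean of 0.1 FPKM for the test, as did 17948 genes in all.

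The data comprised 4 bulk RNA sequencing libraries of PMN-MDSCs from mouse spleen on postnatal day 7, sorted per the methods as CD11b+ Ly6C low or negative Ly6G+ cells. The 2 libraries labelled Dhps cko came from Dhps fl/fl mice that also carried Lysm cre, in which Cre recombinase from the Lyz2 locus deletes the floxed gene in myeloid cells, and the 2 labelled Dhps flox came from Dhps fl/fl mice with no Cre stated. Both genotypes therefore carry the floxed alleles, and neither received a treatment. Dhps encodes deoxyhypusine synthase, which uses spermidine for the first step of hypusine formation on the translation factor eIF5A. The number of pups behind a library and whether libraries came from separate animals are not given in the sources used here. Each library held both Xist, a transcript of female cells, and Y-linked message, so it held cells from pups of both sexes. The p-values therefore measure only the spread between these libraries, which may be technical.

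Chaperones bind proteins that are unfolded or still being made and help them to fold. HSP70 proteins work in an ATP-driven cycle in which J-domain proteins deliver clients and nucleotide exchange factors release them, and HSP90 proteins take over clients such as kinases and receptors that are nearly folded. In the cytosol the inducible genes are switched on by the heat shock factor HSF1, while in the ER the unfolded protein response, through ATF6 and XBP1, raises chaperones such as BiP, the product of Hspa5. Neutrophil precursors make large amounts of granule protein in the ER, whereas mature neutrophils have few mitochondria and a compact ER.

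The values are FPKM, as calculated by the authors, which scale the fragments of a gene by transcript length and by the mapped fragments of the library. Levels may thus be set side by side between genes. Between libraries they also depend on scaling, since FPKM sums ran from 304281 in Dhps flox replicate 2 to 319286 in Dhps cko replicate 2. Other scalings are given below. Approximate depths, read from the steps between low values, were 32100000 and 31700000 mapped fragments in the Dhps cko libraries and 30600000 and 29300000 in the Dhps flox libraries. All 12 of 12 neutrophil markers were well expressed, with a summed level of 73002 to 79945 FPKM in a library. Itgam and Ly6g among them are genes of the sort, so their level was set by the gate. The paper states that this gate can take in polymorphonuclear cells along with PMN-MDSCs, and these markers were not used to tell them apart. Dhps itself was at 2.38 and 2.59 FPKM in Dhps cko and at 3.57 and 3.11 FPKM in Dhps flox, a mean of 74.4% of that in Dhps flox with a limma adjusted p of 0.629. Which exons are floxed is not given in the sources used here, so this gene-level value may not measure the deletion. Lyz2, the locus that holds Cre, was at 2245 and 2380 FPKM in Dhps cko and at 6874 and 6544 FPKM in Dhps flox, which goes with the labels.

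The stretches upstream of the RefSeq start sites are shown first, because some hold letters of a heat shock element and that of Hspa5 holds an ER stress element. RefSeq promoter windows of GRCm38.p6 were found for 6 of the 10 members. For Hspa1a and Hspa1b the 160 bases before the start, in no annotated gene, are shown to make plain how alike this pair is, and for the others 30 bases around a match, with the matched letters in capitals.
Hspa1a, chr17:34972157-34972316, minus strand: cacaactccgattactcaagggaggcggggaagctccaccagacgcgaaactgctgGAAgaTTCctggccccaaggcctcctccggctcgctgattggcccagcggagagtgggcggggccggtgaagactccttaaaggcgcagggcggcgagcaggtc
Hspa1b, chr17:34959239-34959398, minus strand: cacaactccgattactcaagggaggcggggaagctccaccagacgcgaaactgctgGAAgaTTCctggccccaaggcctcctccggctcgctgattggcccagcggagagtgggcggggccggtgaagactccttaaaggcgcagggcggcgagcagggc
Hspd1, chr1:55088052-55088081, minus strand, in an annotated exon of Hspd1: gggccTTCcgGAAggTTCtaGAAcggaccg
Hsph1, chr5:149636351-149636380, minus strand, with 26 of its 30 bases in an exon of Hsph1: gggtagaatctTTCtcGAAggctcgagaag
Hspa5, chr2:34772019-34772048, plus strand, in an exon of a longer annotated Hspa5 transcript: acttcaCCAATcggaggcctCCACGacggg

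Heat shock factors bind arrays of the unit GAA and its reverse TTC in alternating direction. Over the 250 bases upstream of 32851 RefSeq promoters, searched on both strands, the array of 3 units (GAA, TTC and GAA or the reverse, 2 bases apart) occurred in 0.466%, the pair GAANNTTC in 6.69% and the pair TTCNNGAA in 7.17%, and both pairs lie inside the array and are counted there again. Hspd1 held 2 overlapping matches to the array of 3 units, which begin 144 and 139 bases upstream of the inner of its 2 RefSeq starts. Hspa1a and Hspa1b each held GAANNTTC at 104 bases upstream, and Hsph1 held TTCNNGAA at 33 bases upstream of the outer of its 2 starts. The ER stress response element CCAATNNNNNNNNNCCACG, which NF-Y and ATF6 recognise, occurred in 0.113% of promoters, and Hspa5 held it 65 bases upstream. Dnajb1 held none of these letters in either of its windows, whose RefSeq starts lie 18 and 5 bases before the start of a GENCODE transcript of the gene. Such matches describe sequence and are not measured binding sites.

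The upstream 250 bases of Hspa1a and Hspa1b were identical at 247 of 250 positions and their coding sequences at 1915 of 1926, or 99.43%. The genes lie next to each other in the MHC region of chromosome 17, Hspa1a from 34969190 to 34972156 and Hspa1b from 34956436 to 34959238 in GENCODE M21 (GRCm38), each as 1 exon on the minus strand. Of the stretches of 100 bases in their transcripts, 47.07% of those of Hspa1a also occur in Hspa1b and 49.93% of those of Hspa1b in Hspa1a, so fragments from these stretches could have been assigned to either gene. The constitutive Hspa8 is a more distant relative, with 74.13% identity to Hspa1a over the aligned coding sequence, and Hsp90aa1 and Hsp90ab1 were 75.65% identical.

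The levels of the 10 genes spanned more than 2 orders of magnitude, and the constitutive cytosolic forms were by far the highest. Hspa8 averaged 101 FPKM over the 4 libraries, Hsp90ab1, Hspa5, Hsp90aa1, Dnajb1, Hspd1 and Hspa9 followed in that order, and Hspa1b, Hspa1a and Hsph1, whose highest library was at 1.43 FPKM, came last. Neighbours in this order were separated in all libraries except Dnajb1 and Hspd1, and Hspa1a and Hsph1, whose ranges overlapped. The step from Hspa9 to Hspa1b was the largest, with a ratio of means of 6.45. Hspa8 and Hsp90ab1 together made up 62.7% and 63.2% of the summed FPKM of the members in Dhps cko and 60.3% and 61.7% in Dhps flox. The PMN-MDSCs of both genotypes thus held much constitutive and little inducible HSP70 message.

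**Figure D1:**
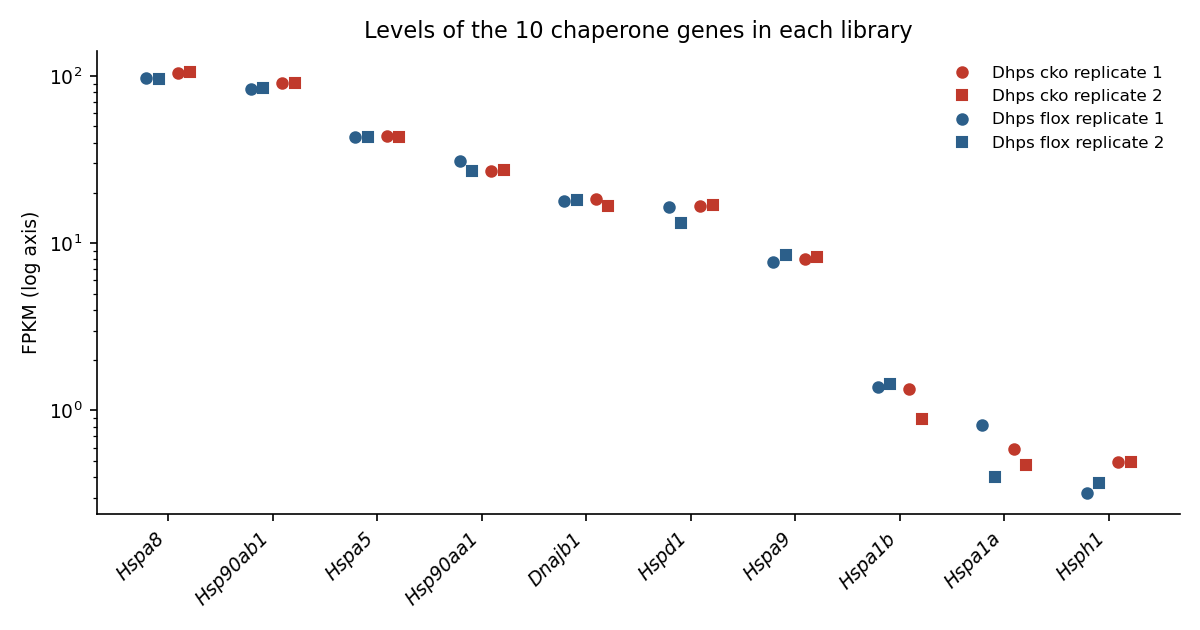
FPKM (log axis) of each of the 10 chaperone genes in each library, red for Dhps cko and blue for Dhps flox, circles for replicate 1 and squares for replicate 2. Hspa8 and Hsp90ab1 lie near 100 FPKM and Hspa1b, Hspa1a and Hsph1 near or below 1 FPKM, and for every gene the distance between genotypes is small beside the distance between high and low genes.

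The libraries labelled Dhps cko were then compared with those labelled Dhps flox for each gene, by limma on log2(FPKM + 0.1) over all 17948 genes with Benjamini-Hochberg adjustment. None of the 10 chaperone genes passed an adjusted p of 0.05, the lowest adjusted p being 0.743 for Hspa8, and none had an unadjusted p under 0.05. Across all genes tested 1 gene, or 0.00557%, passed the adjusted threshold and 7.0% had an unadjusted p under 0.05, 4.72% with Dhps cko higher and 2.28% with it lower. The log2 fold change, Dhps cko against Dhps flox throughout, was positive for 6 members and negative for 4, beside 52.2% positive among all genes. The median of the members was 0.01, and that of all genes tested was also 0.01. In 5 of the 10 the libraries of the genotypes did not overlap, 4 with Dhps cko higher and 1 with it lower, where 36.0% of all genes did not overlap, 20.0% higher and 16.0% lower.

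Hspa8 encodes HSC70, the constitutive HSP70 that folds new proteins, strips clathrin coats and feeds chaperone-mediated autophagy. Its level, with replicate 1 before replicate 2 here and throughout, was 104 and 106 FPKM in Dhps cko and 97.7 and 96.0 FPKM in Dhps flox. Both Dhps cko libraries lay above both Dhps flox libraries, at 108.5% of their mean. The log2 fold change was 0.12 (SE 0.050, limma unadjusted p = 0.0653, adjusted p = 0.743), with a 95% interval of -0.01 to 0.25.

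Hsp90ab1 encodes the constitutive cytosolic HSP90, which matures kinases and steroid receptors. Its level was 90.3 and 90.5 FPKM in Dhps cko and 83.1 and 85.0 FPKM in Dhps flox, again without overlap. The log2 fold change was 0.11 (SE 0.050, limma unadjusted p = 0.0909, adjusted p = 0.766). A shift of this size was common among well expressed genes. Of the 3759 genes that averaged 10 FPKM or more, 18.5% had a log2 fold change at or above that of Hspa8 and 21.2% at or above that of Hsp90ab1, and 25.6% were higher in Dhps cko without overlap.

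The inducible Hspa1a and Hspa1b encode nearly the same protein, the inducible HSP70 that accumulates after heat shock. Hspa1b was at 1.34 and 0.89 FPKM in Dhps cko and at 1.38 and 1.43 FPKM in Dhps flox. It was the only member with both Dhps cko libraries below both Dhps flox libraries, though replicate 1 lay only just below and the log2 fold change of -0.33 (SE 0.235) had a limma adjusted p of 0.818. The value depended on Dhps cko replicate 2, without which it was -0.063, and it was -0.60 without Dhps cko replicate 1. Hspa1a was at 0.59 and 0.47 FPKM in Dhps cko and at 0.82 and 0.40 FPKM in Dhps flox, so the Dhps flox libraries held both the highest and the lowest value. These levels correspond to approximately 34.8 to 74.4 fragments for Hspa1a and 79.1 to 120.6 for Hspa1b in a library, and the 95% interval of the log2 fold change of Hspa1a ran from -1.07 to 0.85. A change by a factor of 1.5 in either direction would lie inside that interval, so it was not detectable at this depth and number of libraries.

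Because the pair shares so much sequence, its sum was also taken. Hspa1a and Hspa1b together were at 1.93 and 1.36 FPKM in Dhps cko and at 2.2 and 1.83 FPKM in Dhps flox, which overlap (exact two-sided permutation p = 0.667). Hspa1a made up 30.6% and 34.6% of the sum in Dhps cko and 37.3% and 21.9% in Dhps flox. The split between the copies therefore varied more within Dhps flox than between genotypes, and 19.01% of the exon bases of Hspa1a also overlap Gm20481 on the opposite strand, with strand use in counting not given in the sources used here.

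Hsp90aa1 encodes the stress-inducible cytosolic HSP90. It was at 27.0 and 27.5 FPKM in Dhps cko and at 31.1 and 27.1 FPKM in Dhps flox, with a log2 fold change of -0.09 (SE 0.083, limma adjusted p = 0.851) and overlapping genotypes. Dhps flox replicate 1 alone lay apart from the other 3 libraries, and without it the log2 fold change was 0.01. Without Dhps flox replicate 2 it was -0.19.

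Dnajb1 encodes HSP40, the J-domain protein that brings clients to inducible HSP70 and, with it, holds HSF1 in check. Its level was 18.4 and 16.7 FPKM in Dhps cko and 17.96 and 18.21 FPKM in Dhps flox, and its log2 fold change was -0.04 (SE 0.074, limma adjusted p = 0.943). The genotypes overlapped, since Dhps cko held both the highest and the lowest library. Dnajb1 was thus present at more than 10 times the level of Hspa1a or of Hspa1b, each taken alone, in each library, although heat shock factor induces all 3 genes.

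Hsph1 encodes HSP110, a nucleotide exchange factor of HSP70 that helps it to dissolve aggregates. It was at 0.49 FPKM in both Dhps cko libraries and at 0.32 and 0.37 FPKM in Dhps flox. It had the largest positive log2 fold change among the members, 0.41 (SE 0.266, limma adjusted p = 0.805), without overlap. The difference rests on few fragments, approximately 59.8 and 59.1 against 37.2 and 41.2.

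**Figure D2:**
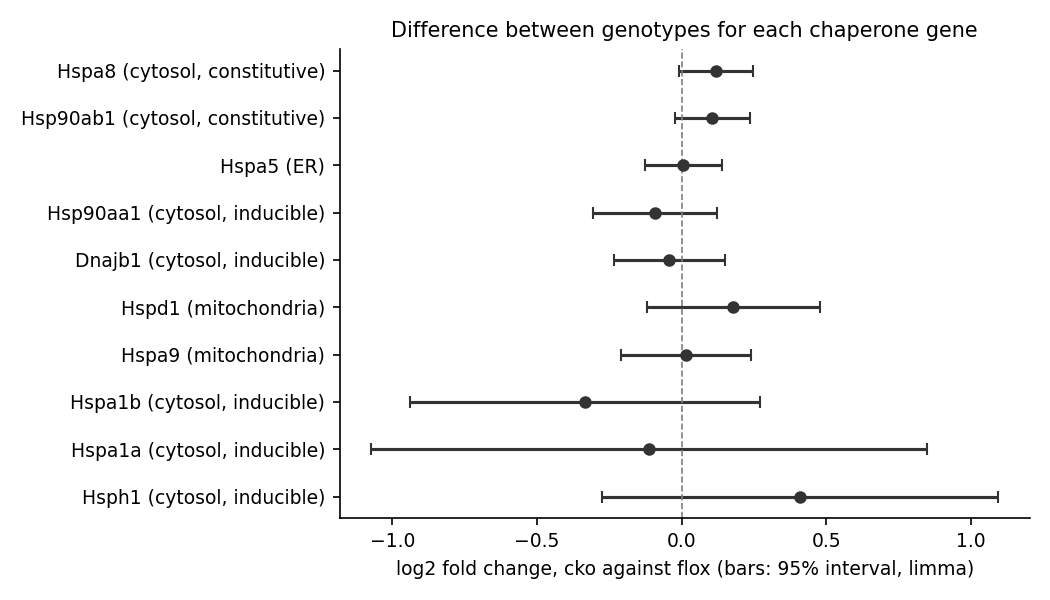
Log2 fold change of each chaperone gene (points), Dhps cko against Dhps flox, with the 95% interval from limma (bars), genes in order of mean level and with their place in the cell. Every interval includes 0, and the intervals widen from Hspa8, with -0.01 to 0.25, to Hspa1a, with -1.07 to 0.85.

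BiP, encoded by Hspa5, is the HSP70 of the ER lumen, where it folds secreted proteins and keeps the stress sensors inactive. Hspa5 was at 43.5 and 43.2 FPKM in Dhps cko and at 43.1 and 43.2 FPKM in Dhps flox. These were the closest values of any member, with overlapping genotypes, a log2 fold change of 0.01 and an adjusted p of 0.993 by limma. The 95% interval of the fold change ran from 0.915 to 1.10, so any larger change of Hspa5 lies outside it.

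In the mitochondria, Hspa9 encodes mortalin, the HSP70 that pulls proteins through the inner membrane, and Hspd1 encodes HSP60, which folds them in the matrix. Hspa9 was at 8.0 and 8.33 FPKM in Dhps cko and at 7.70 and 8.47 FPKM in Dhps flox, with a log2 fold change of 0.02 and overlapping genotypes. Hspd1 was at 16.7 and 16.9 FPKM in Dhps cko and at 16.5 and 13.3 FPKM in Dhps flox, without overlap, with a log2 fold change of 0.18 (SE 0.116, limma adjusted p = 0.805). The size of that difference depended on Dhps flox replicate 2, the lowest library, without which it was 0.02. Without Dhps flox replicate 1 it was 0.33.

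The balance between inducible and constitutive forms was set out as ratios within each library, which do not depend on library scaling. Hspa1a and Hspa1b together were at 1.85% and 1.28% of the level of Hspa8 in Dhps cko and at 2.25% and 1.91% in Dhps flox (mean ± SD 1.57% ± 0.401 against 2.08% ± 0.244, n = 2 each, exact two-sided permutation p = 0.333). Hsp90aa1 was at 29.9% and 30.4% of the level of Hsp90ab1 in Dhps cko and at 37.4% and 31.9% in Dhps flox (30.1% ± 0.367 against 34.6% ± 3.85, exact permutation p = 0.333). In both ratios each Dhps cko library lay below each Dhps flox library, and 0.333 is the smallest p that 2 libraries against 2 allow, so no difference could pass 0.05. The difference in the HSP90 ratio, -4.51 percentage points, was -1.79 without Dhps flox replicate 1 and -7.23 without Dhps flox replicate 2. The difference in the HSP70 ratio, -0.51 percentage points, was -0.23 without Dhps cko replicate 2 and -0.80 without Dhps cko replicate 1.

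Several members have processed pseudogenes, which are intronless copies that can take fragments from them. Of the stretches of 100 bases in Hspa8, 62.83% occur in other annotated transcripts, and the pseudogene Gm15459, which shares 58.47%, was listed at 17.7 and 19.6 FPKM in Dhps cko and at 19.0 and 17.3 FPKM in Dhps flox. The shared part was 47.55% for Hsp90aa1 and 26.94% for Hspd1, and it was 0% for Hsp90ab1, Hspa5, Hspa9, Dnajb1 and Hsph1. Summed with its copies, Hspa8 was at 127 and 129 FPKM in Dhps cko and 121 and 117 FPKM in Dhps flox, still without overlap and with a log2 fold change of 0.11. Hsp90aa1 summed with its copies had -0.11 and no longer overlapped, and Hspd1 had 0.15 and did overlap. The levels of Hspa8, Hsp90aa1, Hspd1, Hspa1a and Hspa1b are therefore less certain than those of the other members.

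The wider chaperone network was examined by 11 lists of partners and regulators. Of 123 genes 118 were listed and 115 tested, 64 with a positive and 51 with a negative log2 fold change and a median of 0.01. None had an adjusted p under 0.05 by limma, and 6, or 5.22%, had an unadjusted p under 0.05, 5 higher and 1 lower, beside 7.0% of all genes. Of these 6 genes, Hspa4l and Pfdn5 stayed under 0.05 with TPM scaling, Pfdn5 with the replicate block, and 0 without a variance trend. Without Dhps cko replicate 1 Creb3 and Hspa4l did so, and without any other 1 library Pfdn5. In 31.3% of the 115 the genotypes did not overlap, beside 36.0% of all genes. In the comparison as reported, both shares lay below those of the genes tested as a whole.

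Among the 8 other HSP70 genes, 3 had a positive and 5 a negative log2 fold change. Hspa4l, an HSP110 relative of Hsph1, was at 4.97 and 4.42 FPKM in Dhps cko and at 5.70 and 5.62 FPKM in Dhps flox (log2 fold change -0.27, limma unadjusted p = 0.0455, adjusted p = 0.700), and the abundant Hspa4 had 0.07, which was 0.012 without Dhps flox replicate 2 and 0.13 without Dhps flox replicate 1. The exchange factors and regulators of HSP70 had 3 of 9 positive, with Bag6 the most abundant at a mean of 29.7 FPKM, Hspbp1 at 0.37 (0.16 without Dhps flox replicate 1 and 0.58 without Dhps flox replicate 2) and Bag5 at -0.18 (-0.064 without Dhps cko replicate 2 and -0.29 without Dhps cko replicate 1). Of the 12 cytosolic J-domain proteins 9 were positive. They included Dnajc7 at 0.17, and Dnajc5, the cysteine string protein and the most abundant of the list at a mean of 45.9 FPKM, was at -0.08 without overlap.

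Of the 15 co-chaperones of HSP90 11 were positive, with a median of 0.04. Ptges3, which encodes p23 and stabilises the closed HSP90 dimer, was at 10.1 and 10.6 FPKM in Dhps cko and at 8.95 and 8.93 FPKM in Dhps flox (log2 fold change 0.21, limma unadjusted p = 0.0344, adjusted p = 0.669). Fkbp5, an immunophilin partner of HSP90, had 0.16 without overlap. Small heat shock proteins, which hold unfolded proteins without ATP, were low, and Hspb6, the highest, averaged 3.84 FPKM. Of 6 tested, 5 were negative and all 6 overlapped.

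In the cytosolic chaperonin TRiC and its partner prefoldin, which fold actin and tubulin, 9 of 14 genes were positive. Pfdn5 was at 45.01 and 43.18 FPKM in Dhps cko and at 38.1 and 37.2 FPKM in Dhps flox, with a log2 fold change of 0.23, an unadjusted p of 0.0102 and an adjusted p of 0.541 by limma, and Cct5 had 0.13 without overlap. Among 11 mitochondrial chaperones and proteases 5 were positive. Hspe1 encodes the HSP10 lid of the HSP60 chamber and is transcribed away from Hspd1 on the other strand. It was at 2.24 and 1.72 FPKM in Dhps cko and at 1.97 and 1.42 FPKM in Dhps flox, or 10.2% to 13.4% of Hspd1 in a library. These levels rest on few fragments, approximately 55.7 and 42.2 in Dhps cko and 46.7 and 32.2 in Dhps flox. Of the stretches of 100 bases in Hspe1, 20.44% occur in other annotated transcripts. Grpel1, the exchange factor of mortalin, had 0.14, with overlap, with 0.037 without Dhps flox replicate 1 and 0.24 without Dhps flox replicate 2, and Lonp1 was the most abundant of the list at a mean of 7.22 FPKM.

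Of the 18 ER chaperones and folding enzymes tested, 10 were positive and the median was 0.01. Hsp90b1, the HSP90 of the ER, was at 71.5 and 79.4 FPKM in Dhps cko and at 77.3 and 69.5 FPKM in Dhps flox, above Hspa5 in every library and with overlapping genotypes. P4hb, a disulfide isomerase, was the most abundant at a mean of 88.0 FPKM. Pdia4 was at 8.86 and 8.16 FPKM in Dhps cko and at 6.77 and 7.35 FPKM in Dhps flox (log2 fold change 0.27, limma unadjusted p = 0.0330, adjusted p = 0.665). Sdf2l1, a BiP partner, had 0.37 with overlap, and ran from 0.17 without Dhps cko replicate 2 to 0.57 without Dhps cko replicate 1. Among the 10 genes of ER-associated degradation, which returns misfolded proteins to the cytosol for destruction, 6 were positive, Edem2 had 0.19 (0.11 without Dhps cko replicate 1), Sel1l had -0.14 (-0.058 without Dhps cko replicate 2 and -0.23 without Dhps cko replicate 1), and Os9 was the most abundant at a mean of 63.0 FPKM.

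The factors that switch these genes on were measured as transcripts only, although both pathways act largely through the state of the protein. Hsf1 was at 1.92 and 1.9 FPKM in Dhps cko and at 1.99 and 2.31 FPKM in Dhps flox (log2 fold change -0.16, limma adjusted p = 0.851), with -0.056 without Dhps flox replicate 2 and -0.26 without Dhps flox replicate 1, and Hsf2 was below 0.5 FPKM in every library, with -0.14 and overlap. Hsbp1, which binds and restrains HSF1, had 0.18 (limma unadjusted p = 0.0355, adjusted p = 0.677). Of 9 sensors and processing genes of the unfolded protein response, 6 were positive. The sensors Atf6, Eif2ak3 (PERK) and Ern1 (IRE1) had -0.15, -0.11 and 0.12, of which the first and second did not overlap between genotypes and the last was 0.050 without Dhps flox replicate 1 and 0.18 without Dhps flox replicate 2. Xbp1, a target of IRE1 and ATF6, was at 25.2 and 25.9 FPKM in Dhps cko and at 25.6 and 23.8 FPKM in Dhps flox, a log2 fold change of 0.05, and Creb3 had 0.24 (limma unadjusted p = 0.0272, adjusted p = 0.639). Spliced Xbp1 and phosphorylated sensors cannot be seen in these values.

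**Figure D3:**
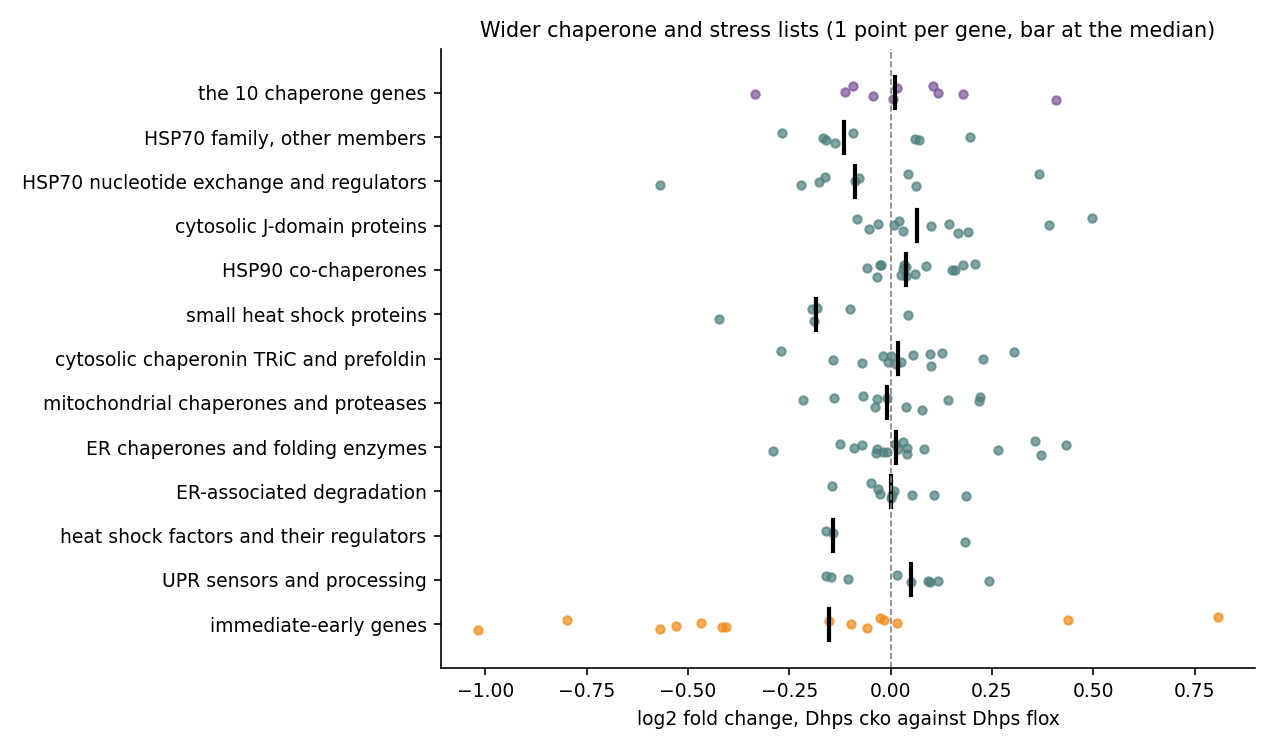
Log2 fold change, Dhps cko against Dhps flox, of every tested gene (points) of the 10 members, the 11 wider lists and the immediate-early genes, with the median of each as a black bar and vertical scatter only to separate points. The medians of the members and most chaperone lists lie near 0, while of the immediate-early genes with an unadjusted p under 0.05 7 lie on the left and 2, Egr3 and Ier3, on the right.

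Immediate-early genes, which respond within minutes to many stimuli, were set beside the inducible chaperones. Of 15 tested, 12 had a negative log2 fold change, the median was -0.15, and 9, or 60.0%, had an unadjusted p under 0.05 by limma, 7 lower and 2 higher, beside 7.0% of all genes. Without Dhps cko replicate 1, and likewise without Dhps cko replicate 2, 5 were lower and 0 higher by that measure. Fosb was at 6.49 and 6.51 FPKM in Dhps cko and at 15.2 and 11.6 FPKM in Dhps flox (log2 fold change -1.02, limma adjusted p = 0.385). Dusp1, a phosphatase that ends MAP kinase signals, was at 42.5 and 43.0 FPKM in Dhps cko and at 84.3 and 65.9 FPKM in Dhps flox (-0.80, limma adjusted p = 0.407). Zfp36, the most abundant of the list at a mean of 124 FPKM, overlapped between genotypes. No gene of this list passed the adjusted threshold, and whether the list and the inducible chaperones differ from each other was not tested.

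**Figure D4:**
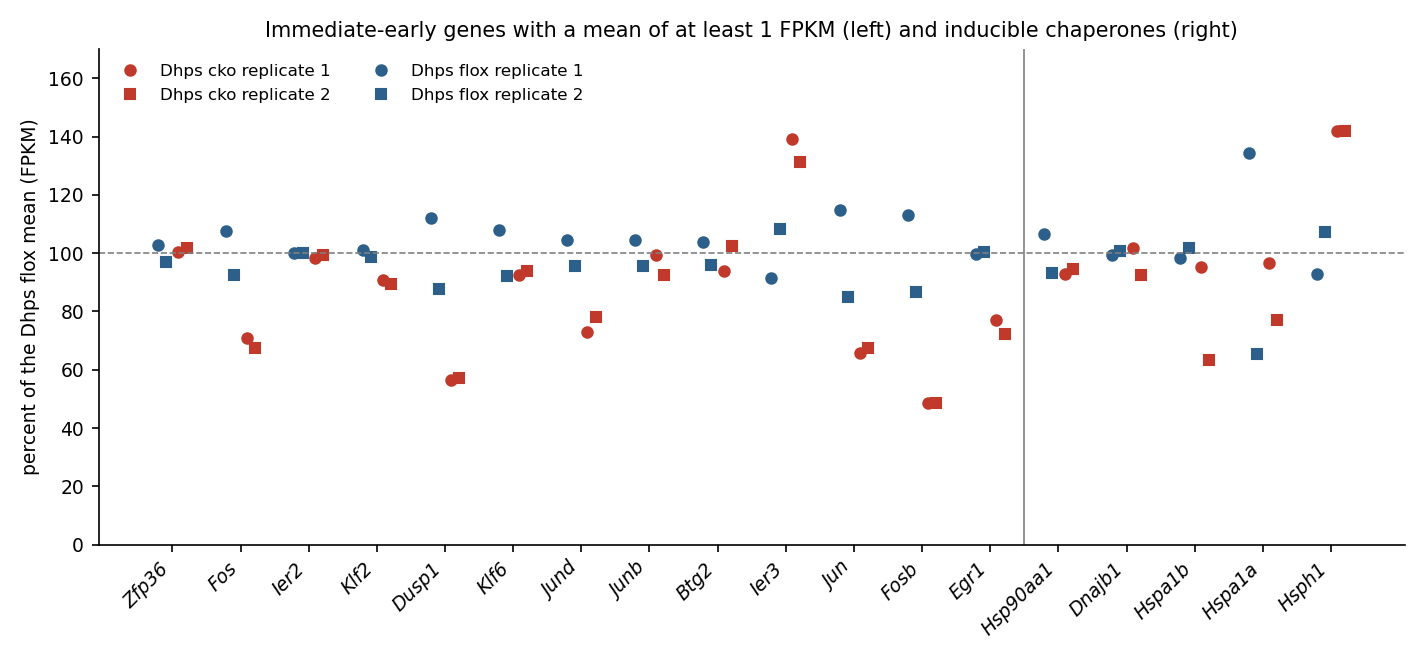
Level in each library as a percent of the Dhps flox mean of the same gene, for the 13 immediate-early genes that averaged 1 FPKM or more (left of the line, by falling level) and the 5 inducible chaperones (right), red for Dhps cko, blue for Dhps flox, circles for replicate 1 and squares for replicate 2. Fosb and Dusp1 lie at 48.6% and 57.0% of the Dhps flox mean on average in Dhps cko and Ier3 at 135%. Among the inducible chaperones Hsp90aa1, Dnajb1 and Hspa1a overlap between genotypes, while Hspa1b at 79.4% and Hsph1 at 142% do not.

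Markers of other cells also leaned to one genotype, though none had an adjusted p under 0.05 by limma. Among all genes 4.72% were higher and 2.28% lower in Dhps cko with an unadjusted p under 0.05, and 16.0% were lower without overlap. All 8 B cell markers had a positive log2 fold change (median 0.57), with a summed level of 24.71 and 25.01 FPKM in Dhps cko and 14.7 and 19.1 FPKM in Dhps flox, and 4 had an unadjusted p under 0.05. All 8 T cell markers were positive (median 0.67, sums of 18.5 and 15.0 against 11.9 and 8.01 FPKM, 3 with an unadjusted p under 0.05), as were all 10 monocyte and macrophage markers (median 0.29, 210 and 211 against 169 and 168 FPKM, 5 with an unadjusted p under 0.05). Genes that mark sex, not cell type, differed as well. The 4 Y-linked genes had negative log2 fold changes without overlap (median -1.08, sums of 7.07 and 8.07 against 17.6 and 15.6 FPKM). All 4 had an unadjusted p under 0.05, with a lowest limma adjusted p of 0.348. Xist was at 27.54 and 20.27 FPKM in Dhps cko and at 16.25 and 17.17 FPKM in Dhps flox. Its log2 fold change was 0.50 (limma unadjusted p = 0.0230, adjusted p = 0.626). A different mix of sexes between the genotypes cannot be told apart from a genotype effect in these comparisons. None of these B cell, T cell or monocyte and macrophage markers was at 0 in a library. The part of these values in the small differences of Hspa8, Hsp90ab1, Hspd1 and Hsph1 was not tested. Plasma cell markers, of cells rich in BiP, were at 3.03 and 2.63 FPKM in sum in Dhps cko and at 2.64 and 1.96 FPKM in Dhps flox, with 2 of 4 tested positive and 1 of the 5 listed at 0 in at least 1 library. Neutrophil markers were positive in 10 of 12 (median 0.08), 1 of them with an unadjusted p under 0.05, which was Ly6g, a gene of the sort (222 and 242 FPKM against 195 and 185 FPKM, limma unadjusted p = 0.0080, adjusted p = 0.529). Erythroid markers were positive in 7 of 8, early neutrophil markers in 5 of 5 and cell cycle markers in 3 of 8, with medians of 0.10, 0.55 and -0.02, and none of these genes had an unadjusted p under 0.05. The summed early neutrophil level was 81.3 and 54.5 FPKM in Dhps cko and 46.3 and 56.5 FPKM in Dhps flox, which overlap. In bulk libraries fewer cells of a type and less RNA per cell cannot be told apart.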

How the data were processed

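RNA was sequenced from 4 libraries of splenic PMN-MDSCs, 2 per genotype as the labels give it. The authors filtered reads with Cutadapt 1.9, aligned them with HISAT2 2.2.1 (build mm10 per the submitters' processing notes) and deposited FPKM per gene, calculated with StringTie 2.1.6 and ballgown and rounded to 2 decimals. The annotation and strand use are not given in the sources used here. FPKM fall for all genes when a few take up more fragments.

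Genes that averaged 0.1 FPKM or more were compared on log2(FPKM + 0.1) with limma 3.58.1 in R 4.3.3 (lmFit, eBayes with trend), without a replicate block, with p-values adjusted over all 17948 genes. Fold changes on this scale understate the change of low genes. limma was checked on simulated data with shifts far larger than those of the members, so that check does not bear on differences of their size. Only 41.65% to 44.79% of low values lay within 0.15 of a whole fragment step, where chance gives 30%, so whole reads were not recovered and depths are approximate. Ratios were compared by exact two-sided permutation. GENCODE M21 holds 28511 of the listed identifiers and lacks 74. Transcript stretches of 100 bases, coding sequences and positions came from GENCODE M21, promoters from RefSeq. Other steps ran in Python 3.11.15 (numpy 2.4.6, scipy 1.17.1, pandas 2.3.3; figures in matplotlib 3.10.9).

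The members, lists and tests were chosen with earlier results of these data known. All 10 members were named, with, per wider list, the gene of highest mean and the 2 of smallest p with a mean of at least 1 FPKM, 6 regulators (Hsf1, Hsf2, Xbp1, Atf6, Ern1 and Eif2ak3), and Dhps and Lyz2. Hsp90b1, the near-identical pseudogenes, Ier3, Egr3, Ly6g, Xist, Cct2 and Cct3 were named beside these, after their values were seen. No gene was named for a like pattern. A gene that this rule names is not reported here. Alternatives were other pseudocounts, filters and scalings, no trend, a replicate block and leaving out each library, and the sum with near-identical copies was added after the data were seen.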

Additional observations from a re-analysis of the deposited data

How the results depend on the processing

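No chaperone member had an adjusted p under 0.05 in any of 13 alternatives (12 for Hspa1a and Hsph1, which a filter at a mean of 1 FPKM removes), and the lowest adjusted p of any member under one was 0.542. Hspa8, Hsp90ab1, Hspd1, Hspa1b and Hsph1 kept their direction in every alternative run, with log2 fold changes of 0.06 to 0.13, 0.07 to 0.12, 0.02 to 0.33, -0.60 to -0.06 and 0.15 to 0.50. The count of members with an unadjusted p under 0.05 was 0 as reported, 1 without a variance trend (Hsph1), and 0 to 1 when a library was left out (Hspd1 without Dhps flox replicate 1, Hsp90aa1 without Dhps flox replicate 2). With a library left out, the lone library of its genotype is assumed to vary like the other genotype. The number of genes with an adjusted p under 0.05 went from 1 to 0 with a pseudocount of 0.01, with no filter and with the replicate block, to 4 with a filter at a mean of 1 FPKM, to 2 with quantile normalization, and to 0 without any 1 library. The number with an unadjusted p under 0.05 went from 1257 to 819 with that filter, which tests fewer genes, and to between 719 and 1609 without a library. The median log2 fold change of the members was -0.022 under TPM scaling, which moved the median of all genes to -0.019, and 0.015 to 0.047 without a library, the highest without Dhps flox replicate 1. That of the wider lists was -0.020 under TPM scaling, -0.012 under quantile normalization and -0.0035 to 0.042 without a library. Their genes with an unadjusted p under 0.05 went from 6 to 2 under TPM scaling, without a trend and with the replicate block, and to between 1 and 6 without a library. With Dnajb1 and Hsph1 added above and Hsp90ab1 below, the ratio of inducible to constitutive genes averaged 10.1% in Dhps cko and 11.3% in Dhps flox. It differed by -1.22 percentage points in place of -0.51. The sizes are not alike, since the ratio without these genes averaged only 1.57% in Dhps cko and 2.08% in Dhps flox.

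Directions reversed for Hspa5 under TPM scaling (-0.027), size factors (-0.0065) and quantile normalization (-0.030), and it ran from -0.00050 to 0.011 without a library. Hspa9 reversed under TPM scaling (-0.017) and ran from -0.053 to 0.083. Without a library Hspa1a ran from -0.55 to 0.33, Dnajb1 from -0.11 to 0.027, Hsp90aa1 from -0.19 to 0.0058, Hspb6 from -0.26 to 0.065, Hspe1 from -0.0044 to 0.44, Hsf2 from -0.30 to 0.015 and Xbp1 from -0.0027 to 0.10. Except where a scaling shift or fewer genes or libraries are named, the cause was not tested. Of 478 values of 37 named genes under alternatives, 462 kept their direction and side of the threshold.

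Whether the replicate numbers pair the libraries is not given in the sources used here, and the paper describes the genotypes as littermates. The differences of replicate 1 from 2 within each genotype correlated at r = -0.0061 across 17948 genes. No large shared replicate effect was thus seen, but this correlation cannot decide whether libraries were paired by litter or preparation. With the replicate block, 0 members had an adjusted or an unadjusted p under 0.05 and 1082 genes had an unadjusted p under 0.05.

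The precision is limited by 2 libraries per genotype and, for Hspa1a, Hspa1b, Hsph1 and, outside the members, Hspe1, by few fragments. Intervals on their levels cannot be given from counts, which the values do not hold. Near-identical copies make Hspa8, Hsp90aa1, Hspd1, Hspa1a and Hspa1b uncertain, and protein levels were not analysed here.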

Other observations

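The 8 subunits of TRiC, which assemble in equal numbers into its double ring, differed in transcript level by a ratio of 7.57 between the highest and the lowest mean. Cct3 was the lowest, at 3.76 and 3.82 FPKM in Dhps cko and at 3.55 and 4.16 FPKM in Dhps flox, and Cct2 was the highest, at 30.1 and 29.8 FPKM in Dhps cko and at 27.3 and 28.6 FPKM in Dhps flox. The median of the subunit means was 13.7 FPKM. Cct2 and Cct5 were higher in Dhps cko without overlap, with log2 fold changes of 0.10 and 0.13 and limma adjusted p of 0.786 and 0.753. The other subunits overlapped between genotypes. Among all genes tested 20.0% were higher in Dhps cko without overlap, and 25.6% of those that averaged 10 FPKM or more. The TRiC genes named here were chosen after their values were seen.

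The summed FPKM of the 10 chaperone members was 310.65 and 310.90 in Dhps cko and 299.69 and 293.53 in Dhps flox, or 0.0988% and 0.0974% of all FPKM against 0.0950% and 0.0965%. The share was higher in Dhps cko in each library (exact two-sided permutation p = 0.333, the smallest that 2 libraries against 2 allow), and Hspa8 and Hsp90ab1 make up most of it.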
